A study of Homo sapiens with 12 samples.

Results

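The genes described here are 10 genes of the enterocyte brush border, namely CDH17, SLC9A3, DPEP1, VIL1, CDHR2, CDHR5, MUC13, MYO1A, FABP1 and SLC26A3. They were taken by symbol from the deposited table of variance-stabilized values and matched by Ensembl identifier to the count table, where they are 10 of 62426 genes. The members were chosen by name with expression values of these same libraries in view, and which contrasts were used is not recorded. The levels and fold changes of the 10 genes are therefore given as a description, and no p-value is printed for them. Whether a member met the thresholds given below, which include an adjusted p, is likewise only described. Nothing is supported with these values.

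RNA of the established colon cancer lines HCT116 and SW480 was sequenced in 12 RNAseq libraries. In each line, 2 libraries came from parental cells, 2 from cells overexpressing the standard isoform of the CD44 hyaluronan receptor (CD44s-OE) and 2 from cells overexpressing the CD44v6 isoform, which includes variable exon v6 (CD44v6-OE). OE cells were stably transfected with expression plasmids and selected in Geneticin, and the count table names them as pools rather than single clones. The parental cells were neither transfected nor selected as far as the labels state, and no empty-vector library is among the 12, so the isoform and the transfection with selection cannot be told apart in a comparison with parental cells. The study asked what each isoform does to the transcriptome of colon cancer cells. Nothing in the labels says that the 2 libraries of a group came from separate cultures, so the spread between them may be technical.

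The brush border is the carpet of microvilli on the apical face of absorptive intestinal cells. Each microvillus holds a bundle of actin filaments, bundled by villin (VIL1) and tied to the membrane by myosin motors such as MYO1A, and the tips of neighbouring microvilli are linked by the protocadherins CDHR2 and CDHR5. The membrane carries digestive enzymes, ion and nutrient transporters and a coat of transmembrane mucins, and the set as a whole is a textbook sign of enterocyte differentiation, which colon cancer cell lines retain to very different degrees.

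Promoter sequence is shown for 4 members because they span the range seen in these cells, from the most abundant transcript to one that was hardly detected. The windows are the 250 bases before a RefSeq transcription start on assembly GRCh38.p14, read 5′ to 3′ on the strand of the gene. RefSeq gave 12 starts for 7 members and no entry for VIL1 and CDHR5. CDH17 was left out of this search, so whether it has an entry is not shown. Capitals mark matches, on either strand, to TTTATG (a core of sites for CDX factors), GTTAAT (a half-site of HNF1) or AAGTCCA (a core of HNF4 sites), which are transcription factors of the intestinal epithelium, and the 3 motifs do not overlap where they are marked.
SLC9A3, chr5:524450-524699, minus strand: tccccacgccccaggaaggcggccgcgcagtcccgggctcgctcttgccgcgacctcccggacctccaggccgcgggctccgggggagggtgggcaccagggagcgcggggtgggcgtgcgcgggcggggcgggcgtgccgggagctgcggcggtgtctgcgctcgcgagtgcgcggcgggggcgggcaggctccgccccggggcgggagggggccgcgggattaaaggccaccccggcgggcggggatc
DPEP1, chr16:89622005-89622254, plus strand, the start that holds a match among 4: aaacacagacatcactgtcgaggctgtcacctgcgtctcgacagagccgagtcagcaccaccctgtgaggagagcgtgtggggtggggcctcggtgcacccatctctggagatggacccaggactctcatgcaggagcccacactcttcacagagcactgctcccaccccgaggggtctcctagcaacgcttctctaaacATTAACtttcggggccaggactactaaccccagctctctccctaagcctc
MUC13, chr3:124934752-124935001, minus strand: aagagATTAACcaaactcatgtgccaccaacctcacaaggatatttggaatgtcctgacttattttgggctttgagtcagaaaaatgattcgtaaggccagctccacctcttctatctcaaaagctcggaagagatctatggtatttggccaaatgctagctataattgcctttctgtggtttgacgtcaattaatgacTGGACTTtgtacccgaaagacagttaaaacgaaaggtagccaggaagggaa
FABP1, chr2:88128063-88128312, minus strand: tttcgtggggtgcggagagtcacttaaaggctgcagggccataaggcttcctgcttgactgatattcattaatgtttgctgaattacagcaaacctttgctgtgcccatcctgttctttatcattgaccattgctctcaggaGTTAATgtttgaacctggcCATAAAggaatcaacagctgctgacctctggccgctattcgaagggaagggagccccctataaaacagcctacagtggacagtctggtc
The SLC9A3 window has a GC content of 82.0%, higher than 98.3% of the 35116 starts in the table, whose median was 58%. None of the 3 motifs was found in it. The DPEP1 window has GTTAAT 50 bases before the start, MUC13 has GTTAAT at 245 and AAGTCCA at 51 bases, and FABP1 has GTTAAT at 108 and TTTATG at 89 bases. Among the 12 member starts, TTTATG was found in 1, GTTAAT in 5 and AAGTCCA in 2, against 9.64%, 6.23% and 2.82% of all starts. The other matches were in CDHR2 (GTTAAT), MYO1A (AAGTCCA) and SLC26A3 (GTTAAT at 93 and 83 bases). A match is a string of letters and does not show that a factor binds there.

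Depth was alike across libraries, with total counts of 43102156 to 52811889 and 23601 to 26072 genes with counts. Levels are given as CPM, counts scaled to the library total, after TMM normalization over all 12 libraries. The deposited counts count each read of a pair, so the limit that a count of 0 allows was set at 6 counts, the equal of 3 read pairs. On this scale it is 0.112 to 0.152 CPM, and it covers counting error only. Folds given as at least a value divide the observed mean by this limit, and the counting error of that mean is not in them. A gene was called in a comparison where edgeR's quasi-likelihood test gave a Benjamini-Hochberg adjusted p under 0.1 over all genes tested and the absolute log2 fold change was over 1.5, with each line fitted alone. Total CD44 RNA was at 503 to 571 CPM in the 6 HCT116 libraries and at 134 to 205 CPM in the 6 SW480 libraries, and the gene-level count does not show the overexpression that the labels give. In both lines the CD44s-OE libraries lay on both sides of at least one parental library, and both CD44v6-OE libraries lay below both parental libraries, at 503 and 507 CPM against 539 and 540 CPM in HCT116 and at 134 and 146 CPM against 187 and 161 CPM in SW480. Isoforms were not separated in these counts, and CD44s-OE and CD44v6-OE stand throughout for the libraries labelled so. The pairs of libraries were not equally close. Among genes of at least 10 CPM in a group, 202 differed over 2-fold between the HCT116 CD44s-OE libraries and 258 between the SW480 parental libraries, against 0 to 28 in the other 4 groups, so fold changes that rest on those libraries are also given with some of them left out.

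As a check of the label, the colon epithelial markers EPCAM, CDH1, KRT8, KRT18, KRT19, CDX2, KRT20 and LGALS4 summed to 6050 to 18900 CPM in every library. KRT8, KRT18 and KRT19 made up most of this sum. Over the 6 groups, the mean of KRT20 was 0.156 to 2.67 CPM and that of LGALS4 0.0655 to 0.14 CPM, around the limit that a count of 0 allows. Most of the members that define a differentiated enterocyte were at or near 0. Only DPEP1 of the 10 members was at 1 CPM or more in all 6 HCT116 libraries, and only SLC9A3 and VIL1 were in all 6 SW480 libraries. The label thus names the genes, and these cells are not called enterocytes here.

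**Figure D1:**
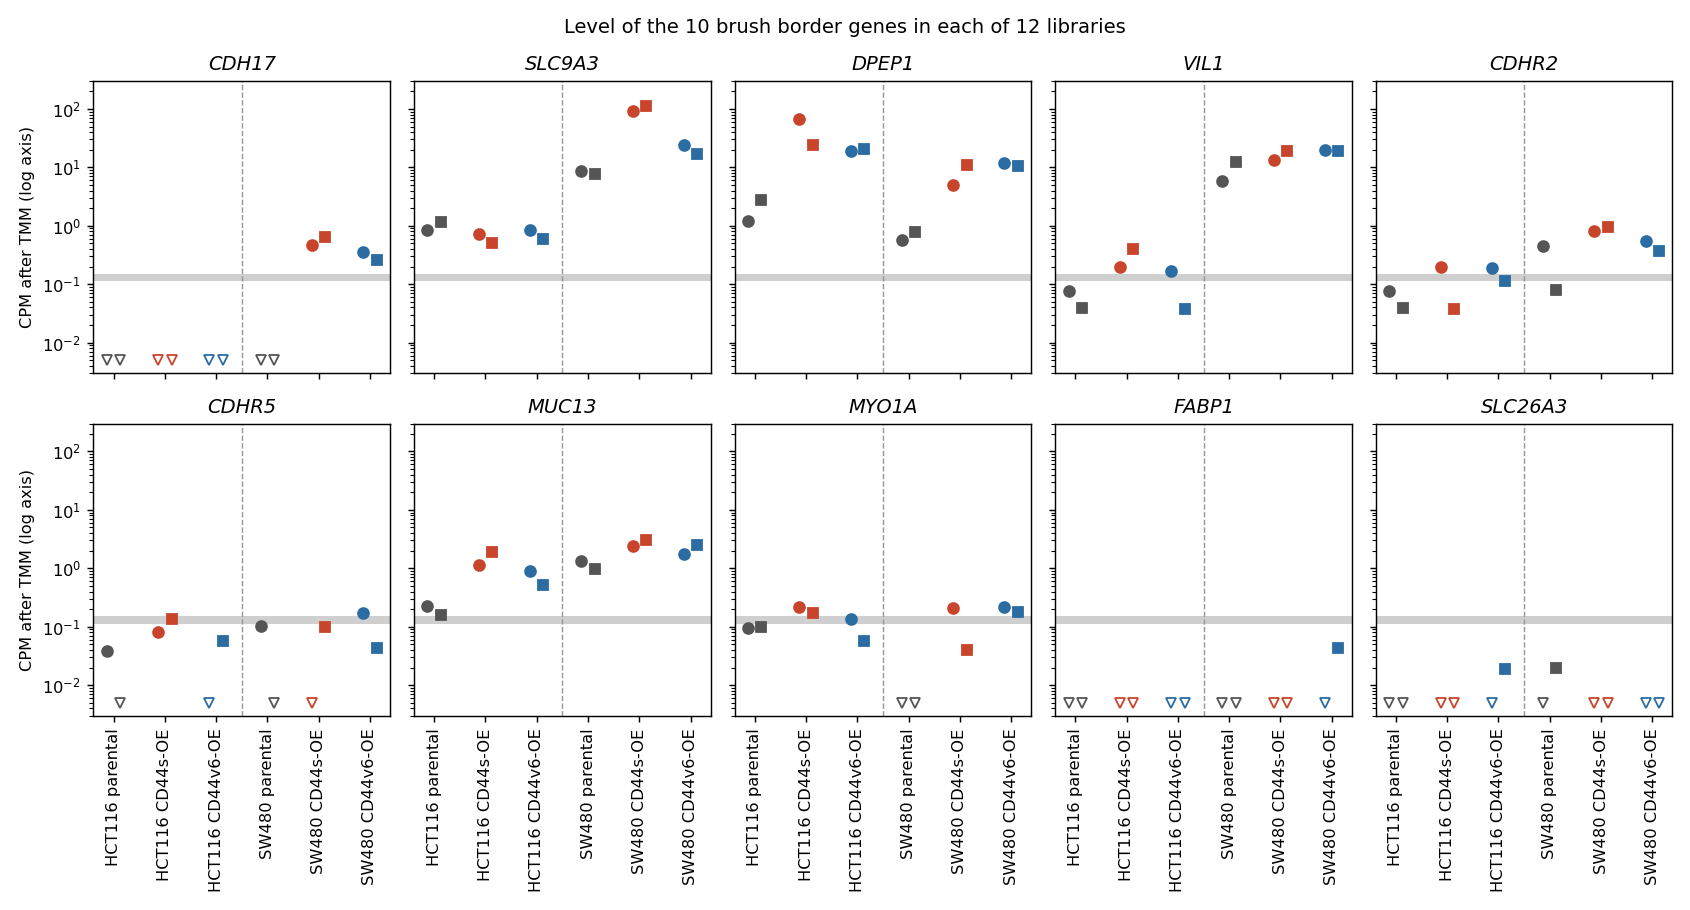
Level of each member in each library, in CPM on a log axis, for the 6 groups on the horizontal axis (HCT116 left of the dashed line, SW480 right); circles are replicate 1 and squares replicate 2, grey is parental, red CD44s-OE and blue CD44v6-OE. Open triangles at the bottom mark counts of 0 and the grey band is the 0.112 to 0.152 CPM that a count of 0 allows; SLC9A3, DPEP1, VIL1 and MUC13 rise well above it in at least 1 line, while CDHR5, MYO1A, FABP1 and SLC26A3 stay around or below it.

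Compared per length of transcript, the order of the members differed between the lines. In HCT116 parental cells, DPEP1 had the highest level per length, 0.731 CPM per kb, followed by SLC9A3 at 0.174 and MUC13 at 0.0549, and the other members were at 0.0216 CPM per kb or less. The lower DPEP1 library, at 0.436 CPM per kb, was still above the higher SLC9A3 library, at 0.203. In SW480 parental cells, SLC9A3 and VIL1 led at 1.42 and 1.34 CPM per kb and did not differ beyond the spread of their libraries, which was 0.854 to 1.83 CPM per kb for VIL1. MUC13 at 0.325 and DPEP1 at 0.248 CPM per kb came next, and their libraries did not part by more than their spread, since the lower MUC13 library was at 0.274 and the higher DPEP1 library at 0.284. In SW480 CD44s-OE cells, SLC9A3 was at 17.7 CPM per kb, above DPEP1 at 2.89 and VIL1 at 2.34, and in HCT116 CD44s-OE cells DPEP1 was at 16.7 CPM per kb, above MUC13 at 0.432.

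SLC9A3 (ENSG00000066230; hg19 chromosome 5, 470571 to 524564, minus strand) encodes NHE3, the apical sodium-hydrogen exchanger that takes up sodium in the gut. The SW480 parental libraries had 8.77 and 7.59 CPM, those with CD44s-OE 92.5 and 111 CPM, and those with CD44v6-OE 23.9 and 16.7 CPM. The 3 groups did not overlap, with CD44s-OE highest and parental cells lowest. The HCT116 parental libraries had 0.834 and 1.17 CPM, those with CD44s-OE 0.722 and 0.512 CPM, and those with CD44v6-OE 0.855 and 0.597 CPM, so that the CD44s-OE libraries lay below the parental ones and the CD44v6-OE libraries overlapped both groups. The log2 fold change against parental cells was 3.62 (SE 0.22, n = 2 libraries per group) in SW480 CD44s-OE and 1.28 (SE 0.20) in SW480 CD44v6-OE, where the change was under the fold threshold. In HCT116 it was -0.70 (SE 0.43) in CD44s-OE and -0.46 (SE 0.42) in CD44v6-OE, neither of them called. Between the isoforms, SW480 CD44s-OE exceeded CD44v6-OE by 2.33 (SE 0.20) on the log2 scale, and the same contrast in HCT116 was -0.23 (SE 0.43). The calls in SW480 CD44s-OE held with any 1 of the 6 libraries left out, with log2 fold changes of 3.49 to 3.74 against parental cells and of 2.10 to 2.59 against CD44v6-OE. The SW480 CD44v6-OE change against parental cells was called only without CD44v6-OE 2 (1.52), among the 6 libraries left out in turn.

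The 2 lines thus had SLC9A3 values of opposite sign in the OE cells. In the fit over all 12 libraries, the CD44s-OE effect in SW480 exceeded that in HCT116 by 4.34 (SE 0.38) on the log2 scale, the CD44v6-OE effect by 1.78 (SE 0.37) and the contrast of the isoforms by 2.56 (SE 0.39). A line difference was called at an adjusted p under 0.1, which 1.65%, 0.210% and 0.0869% of all 19567 genes tested met with a higher effect in SW480. SLC9A3 met it in all 3, while DPEP1, VIL1, CDHR2, MUC13 and MYO1A met it in none. CDHR5, FABP1 and SLC26A3 were not tested. CDH17 had no counts in HCT116, so its fit could not show a line difference. The CD44v6-OE difference lost its call without any 1 of 7 libraries, among them both HCT116 parental libraries (2.01 and 1.52), so it rests on few libraries. The contrast of the isoforms lost it without HCT116 CD44v6-OE 1 (2.27) or SW480 CD44s-OE 2 (2.42), while the CD44s-OE difference kept its call with any library left out, at 4.08 to 4.61.

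On the opposite strand, 3 genes overlap SLC9A3, and counting was by strand. SLC9A3-AS1, an antisense RNA, was at 21.3 and 33.8 CPM in SW480 parental, 50.9 and 59.2 CPM with CD44s-OE, and 47.4 and 37.6 CPM with CD44v6-OE. In HCT116 it was at 15.6 and 8.39 CPM in parental, 25.0 and 28.9 CPM with CD44s-OE, and 20.5 and 21.2 CPM with CD44v6-OE, so it was higher in CD44s-OE in both lines, unlike SLC9A3. Its log2 fold change in CD44s-OE was 1.17 in HCT116 (edgeR adjusted p = 0.0286) and 0.98 in SW480 (adjusted p = 0.0445), both under the fold threshold. ENSG00000250385, for which the tables used give no symbol, had counts of 0 in all 6 HCT116 libraries. Parental SW480 cells had 10 and 13 counts, against 106 and 138 with CD44s-OE, and 64 and 26 with CD44v6-OE, with a log2 fold change of 3.24 in CD44s-OE (edgeR adjusted p = 0.00852). It was the only called gene among the 10 tested within 200000 bases of SLC9A3 in that comparison, and whether its counts include reads that stem from SLC9A3 was not tested. EXOC3, a subunit of the exocyst, was at 45.1 to 59.1 CPM in all 12 libraries.

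**Figure D2:**
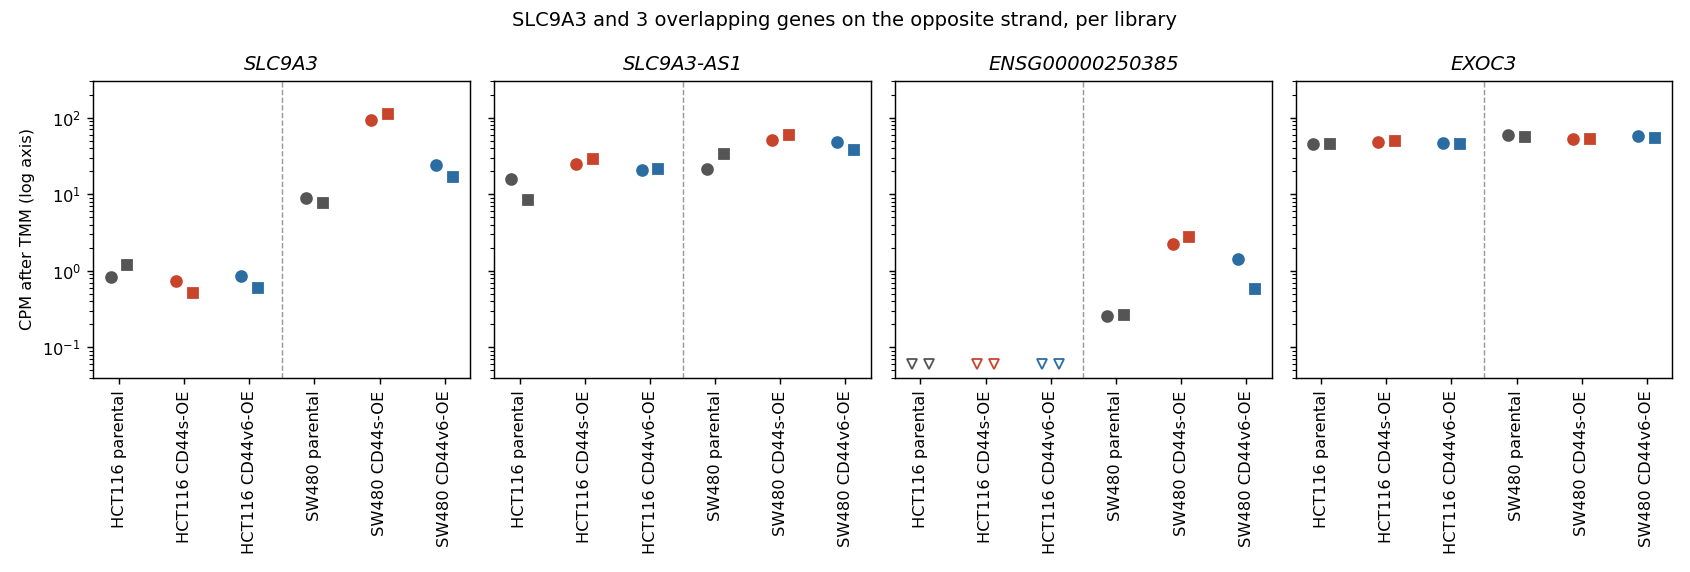
SLC9A3 and 3 genes annotated on the opposite strand that overlap it, in CPM on a log axis for each library; circles are replicate 1 and squares replicate 2, grey is parental, red CD44s-OE, blue CD44v6-OE, and open triangles mark counts of 0. SLC9A3 and ENSG00000250385 are highest in the SW480 CD44s-OE libraries, SLC9A3-AS1 is higher in CD44s-OE than in parental cells of both lines, and EXOC3 stays between 45.1 and 59.1 CPM.

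SLC26A3 (ENSG00000091138; chromosome 7, 107405912 to 107443670, minus strand), the other ion transporter on the list, is the chloride-bicarbonate exchanger of surface colonocytes. It had 1 count in HCT116 CD44v6-OE 2 and 1 count in SW480 parental 2, and 0 in the other 10 libraries. Any level was thus within what a count of 0 allows in every group.

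DPEP1 (ENSG00000015413; chromosome 16, 89679716 to 89704864, plus strand), a membrane dipeptidase of the brush border and of renal tubules, was called higher than in parental cells in both OE groups of both lines, the only member for which this held. In HCT116 it was at 1.19 and 2.81 CPM in parental, 67.0 and 24.1 CPM with CD44s-OE, and 18.8 and 20.6 CPM with CD44v6-OE. The SW480 parental libraries had 0.581 and 0.779 CPM, against 5.02 and 10.8 CPM with CD44s-OE, and 11.8 and 10.6 CPM with CD44v6-OE. Every OE library lay above both parental libraries of its line, and the isoforms overlapped in SW480 but not in HCT116. The log2 fold change against parental cells was 4.51 (SE 0.62) in HCT116 CD44s-OE and 3.30 (SE 0.60) in HCT116 CD44v6-OE. It was 3.50 (SE 0.39) in SW480 CD44s-OE, 4.00 (SE 0.39) in SW480 CD44v6-OE, and called in all 4. The share of all genes called in all 4 is not given here, and the comparisons within a line share their parental libraries. The contrasts of the isoforms were 1.21 (SE 0.53) in HCT116 and -0.49 (SE 0.33) in SW480 and were not called. In HCT116, the CD44s-OE value rested on libraries that stood apart, and it was 3.59 without CD44s-OE 1 and 5.05 without CD44s-OE 2, called in both cases. Without CD44s-OE 2 the isoform contrast in HCT116 became 1.76 and was called. The HCT116 CD44v6-OE call was lost without parental 1 (2.81), parental 2 (4.04), CD44v6-OE 1 (3.36) or CD44v6-OE 2 (3.23), although the fold change stayed over the threshold. In 8 alternatives of processing it held in 4, and it was lost with RLE size factors, no filter on low counts, the replicate number as a block or an adjusted p under 0.05. The SW480 values were 3.32 and 3.81 without parental 1 and 3.74 and 4.24 without parental 2, all called. Of the 16 genes tested within 200000 bases of DPEP1 in HCT116 and the 15 in SW480, none was called in any of the 6 comparisons.

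MUC13 (ENSG00000173702; chromosome 3, 124624289 to 124672663, minus strand) is a transmembrane mucin of the apical surface. In HCT116 it was at 0.228 and 0.156 CPM in parental, 1.12 and 1.90 CPM with CD44s-OE, and 0.912 and 0.522 CPM with CD44v6-OE. The 3 groups did not overlap. The SW480 parental libraries had 1.31 and 0.959 CPM, against 2.39 and 3.06 CPM with CD44s-OE, and 1.77 and 2.54 CPM with CD44v6-OE, so the OE libraries lay above the parental ones and the isoforms overlapped. The log2 fold changes against parental cells were 2.96 (SE 0.52) in HCT116 CD44s-OE, which was called, and 1.89 (SE 0.53) in HCT116 CD44v6-OE, which was not. They were 1.25 (SE 0.37) in SW480 CD44s-OE and 0.90 (SE 0.37) in SW480 CD44v6-OE, not called. Without SW480 parental 1 these were 1.49 and 1.14, and without SW480 parental 2 they were 1.04 and 0.69. The HCT116 CD44s-OE call was lost without parental 2, at 2.72. It held without CD44s-OE 1 (3.28) or CD44s-OE 2 (2.52). The HCT116 CD44v6-OE change met the thresholds without either CD44s-OE library, at 1.88.

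VIL1 (ENSG00000127831; chromosome 2, 219283844 to 219318018, plus strand) encodes villin, the actin bundler of the microvillus core. Among the members tested, it had the largest fitted difference between the parental lines, against few HCT116 counts. It was at 5.89 and 12.6 CPM in SW480 parental, 13.3 and 18.9 CPM with CD44s-OE, and 20.1 and 19.3 CPM with CD44v6-OE. All SW480 OE libraries were above both parental libraries, though the first CD44s-OE library lay close to the second parental one. In HCT116 the parental libraries had 4 and 2 counts, against 10 and 21 with CD44s-OE, and 9 and 2 with CD44v6-OE, so the parental libraries were under what a count of 0 allows. In SW480 the log2 fold changes were 0.78 (SE 0.32) in CD44s-OE and 1.06 (SE 0.32) in CD44v6-OE, not called. They were 0.34 and 0.62 without SW480 parental 1 and 1.44 and 1.72 without SW480 parental 2, the last of them called, so the size of the change depends on which parental library is used. No fold is given for HCT116 since it would rest on those few parental counts. No HCT116 comparison of VIL1 was called, except CD44s-OE against parental cells when CD44s-OE 1 was left out.

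MYO1A (ENSG00000166866; chromosome 12, 57422301 to 57444982, minus strand), the myosin that links the actin core to the membrane, had 5 and 5 counts in parental HCT116 cells, 11 and 9 with CD44s-OE, and 7 and 3 with CD44v6-OE. Parental SW480 cells had 0 and 0 counts, against 10 and 2 with CD44s-OE, and 10 and 8 with CD44v6-OE. The highest of these counts is 11, so MYO1A was close to the detection limit throughout. It did not pass the filter on low counts in either line. The SW480 CD44v6-OE mean was 1.45-fold the limit that the 0 counts of SW480 parental cells allow, and its own counting error could take it below that limit.

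The 3 cadherin-family members were low in both lines. CDHR2 (ENSG00000074276; chromosome 5, 175969512 to 176022975, plus strand), a tip-link protocadherin, was at 0.455 and 0.0799 CPM in SW480 parental, 0.819 and 0.949 CPM with CD44s-OE, and 0.545 and 0.372 CPM with CD44v6-OE. The SW480 CD44s-OE libraries lay above all others, and the parental libraries stood on both sides of 1 CD44v6-OE library. Its log2 fold change in SW480 CD44s-OE was 1.74 (SE 0.70), not called, and it was 3.41 and called without parental 1 but 0.94 without parental 2. In HCT116 it had 2 to 10 counts in every library and did not pass the filter. CDHR5 (ENSG00000099834; chromosome 11, 616577 to 626078, minus strand), the partner of CDHR2 in the tip link, had 0 to 8 counts in all 12 libraries, so no group stood out from the detection limit.

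CDH17 (ENSG00000079112; chromosome 8, 95139390 to 95229531, minus strand), liver-intestine cadherin, a lateral adhesion protein of intestinal epithelium, had 0 counts in all 6 HCT116 libraries and in both SW480 parental libraries. It had 22 and 32 counts in SW480 CD44s-OE and 16 and 12 in SW480 CD44v6-OE libraries. Set against the 6 counts per library that a count of 0 allows, its level was at least 4.03-fold higher in CD44s-OE and at least 2.25-fold higher in CD44v6-OE. The first call was lost without CD44s-OE 2. The second was lost without CD44s-OE 1, CD44s-OE 2, CD44v6-OE 1 or CD44v6-OE 2. FABP1 (ENSG00000163586; chromosome 2, 88422501 to 88427581, minus strand), the liver-type fatty acid-binding protein of the enterocyte cytosol and not a brush border membrane protein, had 2 counts in SW480 CD44v6-OE 2 and 0 in the other 11 libraries.

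Counted over the members, 4 passed the filter on low counts in HCT116 (SLC9A3, DPEP1, VIL1, MUC13) and 6 in SW480 (the same 4 with CDH17 and CDHR2). The filter can be passed through the group where a gene is high, so these are not all the members and their number supports nothing. In HCT116 CD44s-OE, DPEP1 and MUC13 were called higher against parental cells, where 2.71% of all 17335 genes tested were called higher. In HCT116 CD44v6-OE, DPEP1 was called higher, against 0.738% of all genes. In SW480 CD44s-OE, CDH17, SLC9A3 and DPEP1 were called higher, against 1.39% of 17539 genes, and in SW480 CD44v6-OE, CDH17 and DPEP1 were, against 0.405%. Between the isoforms, only SLC9A3 in SW480 was called (higher in CD44s-OE, as were 0.291% of genes), and none in HCT116, where 0.288% of genes were called in either direction. No member was called lower than in parental cells, while 0.387% and 0.0404% of all genes were called lower in CD44s-OE and CD44v6-OE of HCT116, and 0.639% and 0.0114% in those of SW480. These shares describe genes that may have been chosen for the same values, and nothing is read from them. The comparisons of CD44s-OE and CD44v6-OE with parental cells share the parental libraries, so their values are not independent.

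**Figure D3:**
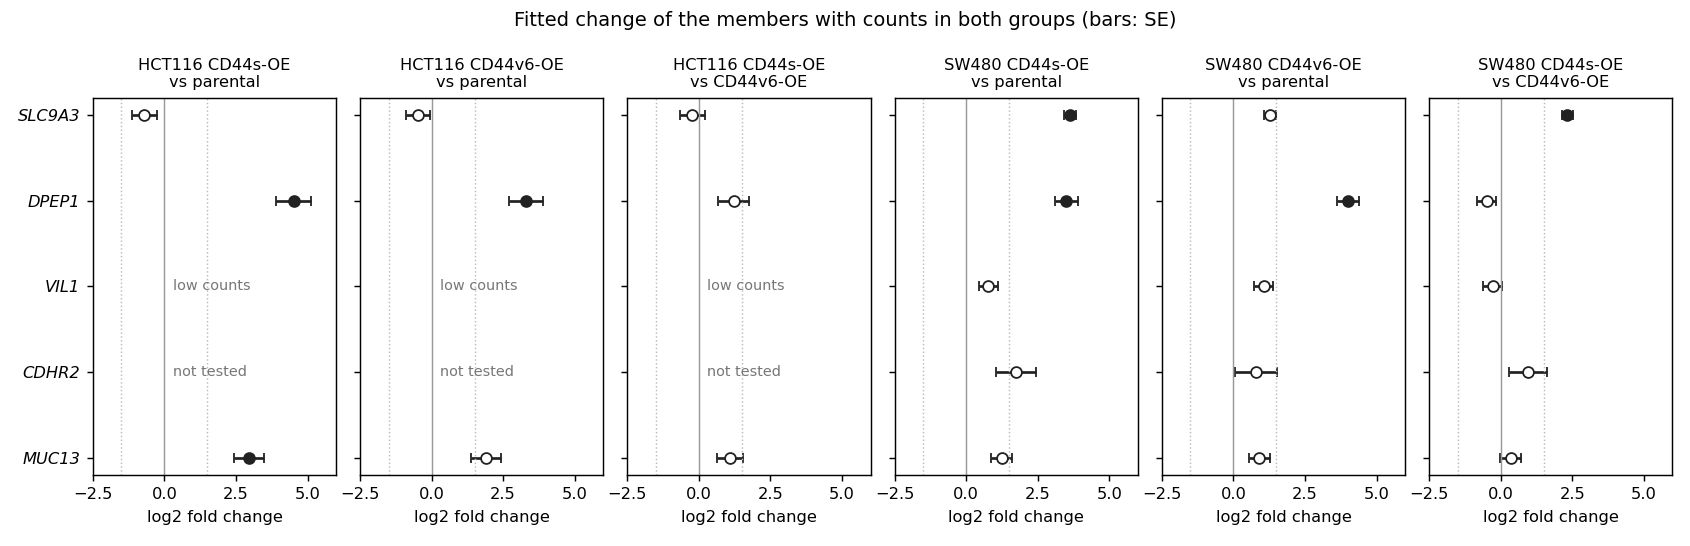
Log2 fold change for 5 members in the 6 comparisons within a line, with bars for the standard error derived from the F statistic. Filled points met the call thresholds, open points did not, and dotted lines mark a log2 fold change of 1.5 in either direction. DPEP1 lies to the right in all 4 comparisons with parental cells, SLC9A3 does so only in SW480; VIL1 in HCT116, with 4 and 2 parental counts, and CDH17, with 0 counts in SW480 parental libraries, are not drawn.

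Between the parental lines, SLC9A3, VIL1, CDHR2 and MUC13 were called higher in SW480, where 16.1% of 19567 genes were called higher and 12.9% lower. The log2 differences were 3.03 (SE 0.26) for SLC9A3 and 2.54 (SE 0.49) for MUC13. VIL1 and CDHR2 had 4 and 2 counts each in the HCT116 parental libraries, under the limit that a count of 0 allows, so no fold is given for them. Against those counts VIL1 had 233 and 630 counts in the SW480 parental libraries, while CDHR2 had 18 and 4, so that the call of CDHR2 rests on counts around the limit. DPEP1 went the other way at -1.54 (SE 0.64), and its call was lost without HCT116 parental 2 (-0.80), SW480 parental 1 (-1.36) or SW480 parental 2 (-1.78). That of CDHR2 was lost when SW480 parental 1, SW480 CD44s-OE 2 or either HCT116 parental library was left out. Of 7 alternatives of processing, the call of DPEP1 held in 3 and that of CDHR2 in 5. MYO1A, with 5 and 5 counts against 0 and 0, met the thresholds as lower in SW480 (lost without SW480 parental 2), but both groups were within what a count of 0 allows and no fold is given. The line cannot be told apart from anything else that was done line by line.

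Markers of other states moved with some of these groups. The summed colon epithelial markers were at 18900 and 17100 CPM in SW480 parental cells and at 8170 and 10100 CPM in SW480 CD44s-OE cells, with CDX2 at means of 78.3 and 35.9 CPM and EPCAM at 241 and 70.2 CPM. By mean, SLC9A3, CDH17, CDHR2 and MUC13 were highest in this SW480 group, where the sum was lowest, though the isoforms overlapped for MUC13. DPEP1 and VIL1 were not. In SW480 CD44v6-OE cells, where the sum was at 15000 and 13700 CPM, DPEP1 was at 11.8 and 10.6 CPM. The VIL1 mean there was 19.7 CPM, against 16.1 CPM with CD44s-OE. The other members were around or below the detection limit in SW480. In HCT116 the sum, most of it from keratins, was at 6860 and 8470 CPM in parental and 6050 and 6870 CPM in CD44s-OE cells. EPCAM was at means of 222 and 100 CPM and CDH1 at 55.9 and 18.4 CPM in those groups, against 178 and 49.4 CPM in CD44v6-OE cells. KRT8, KRT18 and CDX2 also had lower means in CD44s-OE than in parental cells. KRT19 went the other way, at means of 1230 and 1350 CPM, as did KRT20, at 1.22 and 2.67 CPM, and LGALS4 was around the detection limit. Of 6 fibroblast markers, summed at 19.2 and 13.7 CPM in HCT116 parental, 33.2 and 56.4 CPM in CD44s-OE and 35 and 31.7 CPM in CD44v6-OE cells, COL1A1 made up most, with means of 15.8, 30.9 and 31.9 CPM. In HCT116 the mean level of COL3A1 was 13.8 CPM with CD44s-OE, against 0.115 CPM in parental cells and 0.922 CPM with CD44v6-OE. Of 7 enteroendocrine markers, summed at 2.30 and 2.02 CPM in SW480 parental, 10.1 and 1.15 CPM in CD44s-OE and 17.9 and 13.3 CPM in CD44v6-OE cells, CHGA was the highest in the OE groups. The 7 goblet cell markers summed to 0.455 to 5.46 CPM in the 12 libraries. The part of these changes in the levels of the members was not tested, and in bulk RNA fewer cells expressing a gene and less RNA per cell cannot be told apart.

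The other genes of the brush border were described from 5 lists with 90 genes, of which 48 passed the filter in each line. Of 23 genes of the microvillus core, tip link and anchoring, 16 in HCT116 and 18 in SW480 were at 1 CPM or more in all 6 libraries of the line. This held for 3 and 2 of 17 brush border hydrolases, for 6 and 6 of 22 apical transporters and channels, for 3 and 0 of 19 cytosolic and secreted enterocyte genes, and for 4 and 3 of 9 other membrane mucins. The microvillus list also holds genes used by many cell types, such as EZR (ezrin). Its tip-link genes differed in level over the 12 libraries. The scaffold USH1C was at 7.97 to 51.5 CPM, while MYO7B, the motor that anchors the link, was at 0.0656 to 1.24 CPM. The scaffold ANKS4B was at 0 to 0.305 CPM and the myosin light chain CALML4 at 0.079 to 0.475 CPM.

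In HCT116 CD44s-OE, 3 of the 48 genes were called higher than in parental cells and none lower, against 2.71% and 0.387% of all genes. With no minimum fold change 13 were called, of which 9 were higher and 4 lower. The 3 called with the fold threshold were EPS8L3, MYO7B and APOA1. EPS8L3, a relative of the actin-capping protein EPS8, had a log2 fold change of 3.82 (edgeR adjusted p = 0.00356). MYO7B was at 2.64 (edgeR adjusted p = 0.0376) from parental levels of 0.152 and 0.117 CPM, close to the detection limit. APOA1 is an apolipoprotein secreted by enterocytes (edgeR adjusted p = 0.049). No fold is given for APOA1 since its parental libraries were under the detection limit. EPS8L3 was at 0.341 and 0.371 CPM in parental and 7.18 and 2.90 CPM in CD44s-OE libraries, and it kept its call with any library left out. MYO7B lost its call without parental 1, parental 2 or CD44s-OE 1 (highest adjusted p = 0.242, edgeR). APOA1, at 0 and 0.039 CPM in parental and 0.221 and 0.512 CPM in CD44s-OE libraries, lost it without any 1 of 5 libraries (highest adjusted p = 0.195). In HCT116 CD44v6-OE, 3 were called higher and none lower, against 0.738% and 0.0404% of all genes. EPS8L3 had a log2 fold change of 2.94 (edgeR adjusted p = 0.0272), DPP4, a dipeptidyl peptidase of the brush border, 1.83 (adjusted p = 0.005) and MUC16, a large membrane mucin, 3.15 (adjusted p = 0.0272). DPP4 was at 5.78 and 4.66 CPM in parental, 19.0 and 18.2 CPM in CD44v6-OE and 10.5 and 10.7 CPM in CD44s-OE libraries, which did not overlap. All 3 lost their call without parental 2 (edgeR adjusted p = 0.281, 0.131 and 0.208). EPS8L3 also lost it without parental 1 or either CD44v6-OE library, and MUC16 without CD44v6-OE 1. None of the 48 was called between the isoforms in HCT116 by edgeR, where 1824 of the 17335 genes had an unadjusted p under 0.05 and DESeq2 called 1 of the 48.

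In SW480 CD44s-OE, 4 of 48 genes were called higher and 1 lower, against 1.39% and 0.639% of all genes. With no minimum fold change 12 were called, of which 6 were higher and 6 lower. DPP4 was at 0.101 and 0.240 CPM in parental and 1.83 and 2.35 CPM in CD44s-OE libraries, a log2 fold change of 3.54 (edgeR adjusted p = 0.00573). FABP6, the ileal bile acid-binding protein, was called at an adjusted p of 0.0846 (edgeR), from 0.101 and 0.0399 CPM in parental libraries, under the detection limit, to 0.294 and 1.3 CPM in CD44s-OE. PHGR1, which encodes a proline-, histidine- and glycine-rich protein of the intestinal epithelium, had 0 counts in both parental libraries and 41 and 86 counts in CD44s-OE, at least 9.43-fold higher (edgeR adjusted p = 0.00325), and CA2, a carbonic anhydrase, had 0 counts in parental and 14 and 18 counts in CD44s-OE, at least 2.39-fold higher (edgeR adjusted p = 0.0775). MISP, an actin-bundling protein of the microvillus rootlets, fell from 182 and 113 CPM in parental to 28.0 and 34.0 CPM in CD44s-OE libraries, a log2 fold change of -2.27 (edgeR adjusted p = 0.000572). PHGR1 and MISP kept their calls with any library left out. FABP6 also lost its call with the replicate number as a block (edgeR adjusted p = 0.118), counts halved (0.105) or only the 4 libraries compared (0.119). DPP4 lost its call without CD44s-OE 2 (edgeR adjusted p = 0.105), CA2 without either CD44s-OE library (0.205 and 0.408) and FABP6 without parental 2, CD44s-OE 2 or CD44v6-OE 1 (highest 0.644). In SW480 CD44v6-OE, PHGR1 alone was called (0.405% of all genes were called higher), with 31 and 23 counts, at least 4.35-fold higher (edgeR adjusted p = 0.035), and this was lost without CD44s-OE 1, CD44s-OE 2 or CD44v6-OE 1 (highest adjusted p = 0.276).

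Between the isoforms in SW480, 4 of 48 genes were called with CD44s-OE as the lower group, where 0.730% of all genes were, and none with CD44s-OE as the higher group, the opposite direction of SLC9A3. SCNN1A, a subunit of the epithelial sodium channel, was at 16.7 and 19.2 CPM with CD44s-OE, and 59.3 and 64.5 CPM with CD44v6-OE, a log2 fold change of -1.78 (edgeR adjusted p = 0.000579). ESPN, the actin bundler espin, was at 19.6 and 26.0 CPM against 97.9 and 85.1 CPM (edgeR adjusted p = 0.000652). The other 2 were SLC5A1, the sodium-glucose cotransporter, at -3.44 (edgeR adjusted p = 0.0168), and MISP, just past the fold threshold (adjusted p = 0.00586). SCNN1A and ESPN kept their calls with any library left out. SLC5A1 lost its call without CD44s-OE 2 or CD44v6-OE 1 (edgeR adjusted p = 0.275 and 0.192), and MISP without CD44s-OE 1, CD44s-OE 2 or CD44v6-OE 2.

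The medians of the lists were mostly near that of all genes, which lay between -0.01 and 0.04 on the log2 scale in the 6 comparisons. The widest gaps were in lists of few tested genes. The 8 hydrolases tested in HCT116 had median log2 fold changes of 0.72 in CD44s-OE and 0.64 in CD44v6-OE, and the 7 tested in SW480 had 1.11 and 0.72. They include NAALADL1 in HCT116 and MME in SW480, whose parental counts were under the detection limit. The 6 other membrane mucins tested in HCT116 had medians of 1.0 in CD44s-OE and 0.66 in CD44v6-OE, and the 7 tested in SW480 had 0.19 and 0.27. The 20 or 21 microvillus genes had medians of -0.19 and 0.11 in HCT116 OE cells, -0.23 and 0.08 in those of SW480, and -0.51 between the isoforms in SW480. The 3 cytosolic genes tested in SW480 include 2 with 0 parental counts, so their median is not given. Between the parental lines, 11 of 55 genes were higher in SW480 and 13 lower.

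**Figure D4:**
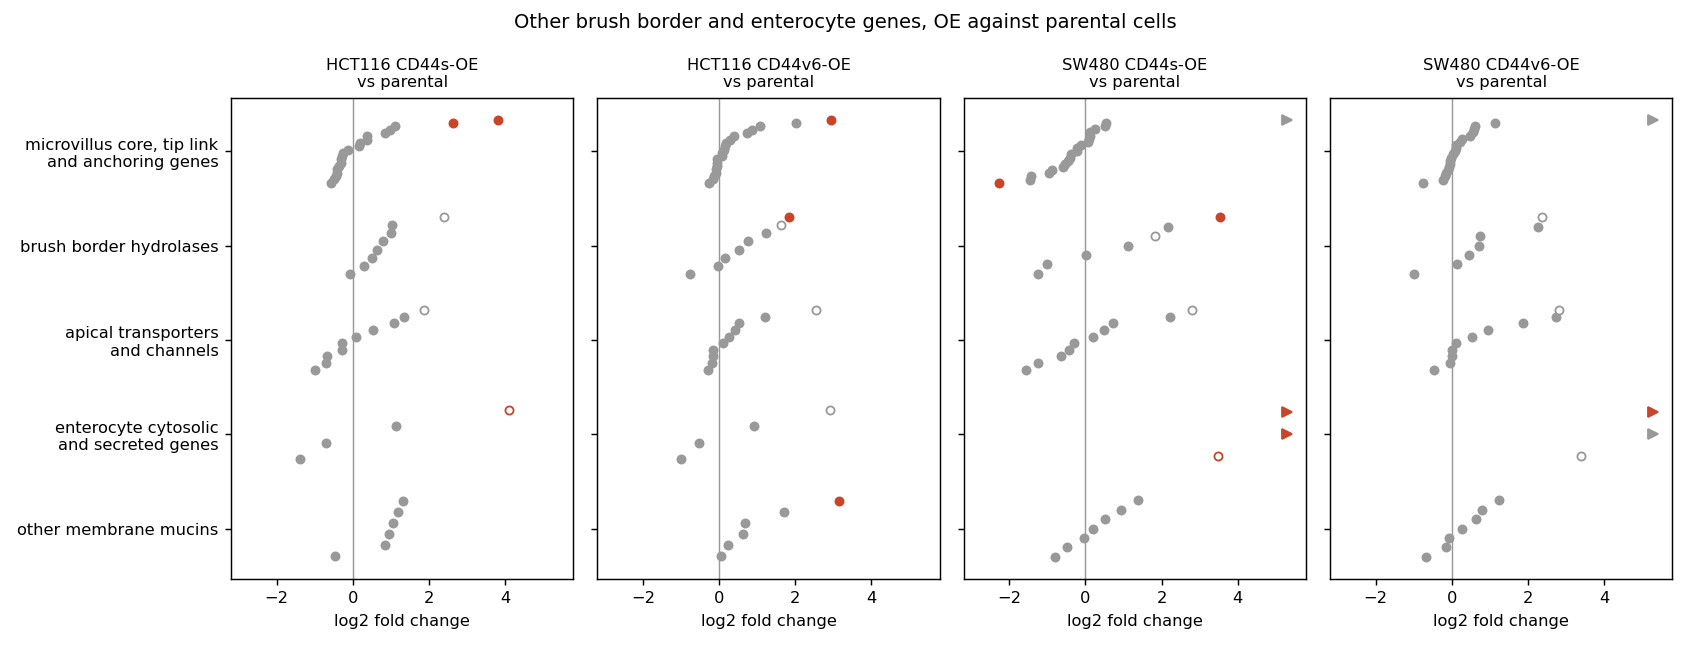
Log2 fold change against parental cells for the tested genes of the 5 other lists, 1 point per gene ordered by value within its list; red points were called and grey points were not. Points filled in white have both parental libraries at or under the limit that a count of 0 allows, so their position is not a measured size. Arrowheads at the right edge stand for fitted values beyond the axis, all of them genes with 0 counts in both SW480 parental libraries; most points of the microvillus list lie near 0 in all 4 panels.

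By profile over the 12 libraries, with log2 CPM centred within each line, the genes most like each member tested in both lines were CPVL, NECTIN3 and C1orf21 for SLC9A3 (Pearson's r of 0.95 to 0.96), SPN, JAK3 and MLC1 for DPEP1 (0.94 to 0.96), IGDCC3, SEPTIN7P2 and SHISA8 for VIL1 (0.92 to 0.95) and MAN2C1, LTK and NINL for MUC13 (0.96). These are the highest of 14556 genes. They are a description over libraries that share their groups, with 6 to 26 genes above 0.9 for each member.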

How the data were processed

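RNA was sequenced in paired reads on the DNBSEQ platform. Per the labels and the study's methods, the authors filtered reads with SOAPnuke, aligned them to hg19 with STAR 2.7.9a, marked duplicates with Sambamba and used featureCounts (Subread 2.0.3) to count reads per gene of GENCODE 35. The deposited table holds the authors' raw counts, reverse-stranded, with each read of a pair counted. A deposited table of variance-stabilized log2 values was used for symbols only. All 12 count columns were matched to a sample by name.

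Counts were analysed with edgeR 4.0.16 in R 4.3.3 (filterByExpr, TMM, robust quasi-likelihood test, Benjamini-Hochberg adjustment over all genes tested), with 6 libraries per line fitted together and all 12 for comparisons between lines. Fits were tested on simulated data. Alternatives were RLE size factors, no filter, DESeq2 1.42.0, replicate number as a block, no minimum fold change, an adjusted p under 0.05, counts halved, only the 4 libraries compared and each library left out. CPM used TMM factors over 12 libraries. Each SE is the absolute log2 fold change divided by the square root of the quasi-likelihood F statistic, and was not estimated separately. Genes named beside the members are, per list and comparison, up to 3 called genes in each direction by fold change, and the 3 genes of highest r. Members and lists were chosen with earlier results of these data known. Promoter windows came from RefSeq (GRCh38.p14) and were not set against the hg19 coordinates. Members without such an entry, CDH17, whose chromosome was left out, and protein sequences are not shown.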

Additional observations from a re-analysis of the deposited data

Results flagged for a closer look

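SLC9A3 had fold changes of opposite sign in the 2 lines, but that in HCT116 CD44s-OE, -0.70 (SE 0.43) on the log2 scale, was not called. Both SW480 CD44s-OE libraries were above both SW480 parental libraries, and both HCT116 CD44s-OE libraries were below both HCT116 parental libraries, with a line difference of 4.34 on the log2 scale (SW480 minus HCT116). In the contrast of the isoforms, both VIL1 libraries with CD44s-OE were above those with CD44v6-OE in HCT116 and below them in SW480. The line difference of -1.81 (SE 0.77) was not called, and the SW480 contrast alone was -0.28 (SE 0.32). The HCT116 counts of 10 and 21 against 9 and 2 are close to the detection limit. Both genes may have been listed for their values in these libraries, so they are noted for their direction alone, as a description that rests on no test. No other member was flagged, and groups of 2 libraries are too small for a check of outlying samples.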

How the results depend on the processing

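No fold change of a member that had been called turned its direction under any alternative. With 2 libraries per group, counts of calls moved with single libraries, and low members are limited by depth. The number of members called was 2 in HCT116 CD44s-OE against parental cells, and 1 with no filter or with the replicate block, where DPEP1 lost its call. In HCT116 CD44v6-OE it was 1, and 0 with RLE size factors, the replicate block or an adjusted p under 0.05, and 2 with only the 4 libraries compared. With no filter it stayed at 1, but MUC13 was called in place of DPEP1. In SW480 CD44v6-OE it was 2, and 1 with RLE size factors, the replicate block, counts halved, only the 4 libraries compared or an adjusted p under 0.05. In the line difference in CD44v6-OE it was 1, and 0 with the replicate block, counts halved or an adjusted p under 0.05. With each library left out, members called ranged from 1 to 3 in HCT116 CD44s-OE, 0 to 2 in HCT116 CD44v6-OE, 0 to 1 between the isoforms in HCT116, 2 to 4 in SW480 CD44s-OE, 1 to 3 in SW480 CD44v6-OE, and 0 to 1 in the line differences in CD44v6-OE and in the isoform contrast. Between the parental lines the count stayed at 4 to 6.

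Of the 90 genes of the other lists, 3 were called in HCT116 CD44s-OE (13 with no minimum fold change, 2 to 6 with a library left out), and 3 in HCT116 CD44v6-OE (5 with no filter or only the 4 libraries compared, 0 to 5 with a library left out). Between the isoforms in HCT116, 0 were called (1 with no filter, DESeq2, the replicate block or no minimum fold change, 0 to 2 with a library left out). In SW480 CD44s-OE, 5 were called (9 with no filter, 3 with counts halved or an adjusted p under 0.05, 12 with no minimum fold change, 3 to 9 with a library left out), in SW480 CD44v6-OE 1 (8 with no filter, 5 with DESeq2, 0 with only the 4 libraries compared, 0 to 3 with a library left out), and between the isoforms in SW480 4 (7 with only the 4 libraries compared, 2 to 7 with a library left out). The cause of these moves was not tested. Over all genes, the 536 and 135 calls of HCT116 CD44s-OE and CD44v6-OE ranged from 136 to 805 and from 7 to 369 with a library left out, and the 356 and 73 calls of SW480 from 79 to 809 and from 13 to 344.

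The replicate numbers did not pair the samples: deviations of same-numbered libraries correlated at 0.016 to 0.049 in HCT116 and at -0.084 to 0.121 in SW480. Among the genes named, the replicate block also ended the calls of FABP6 in SW480 CD44s-OE (edgeR adjusted p = 0.118) and of DPEP1 (-1.89) and CDHR2 between the parental lines.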
